A study of Hordeum vulgare with 12 samples.

Results

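The transcriptional response to zeocin was measured in root apices of the barley mutant hvatr.g, which carries a loss-of-function TILLING allele of the ATR kinase in the Sebastian background. The comparison used 6 of the 12 libraries of the study: 3 of hvatr.g roots kept for 6 h in liquid medium with 500 µg/ml zeocin and 3 of hvatr.g roots kept for 6 h in the same medium without it (mock). The other 6 libraries were 3 mock and 3 zeocin libraries of wild-type cv. Sebastian (WT), treated alike, and they served for comparison. All plants were grown in vitro from excised embryos and were 7 days old at treatment, and the dissected apices hold meristem together with young differentiating tissue. The mutant is represented by 1 allele, so effects of that allele and of other mutations in the line cannot be told apart. Transcripts of poly(A) RNA were counted per gene on the Morex v3 annotation, and 26039 of 83990 annotated transcripts had enough counts to be tested.

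Zeocin is a radiomimetic antibiotic of the bleomycin family that breaks DNA strands. Plants sense such damage mainly through the kinases ATM, which responds to double-strand breaks, and ATR, which responds to single-stranded DNA at stalled or resected sites. Both act on the NAC transcription factor SOG1, which turns on repair genes and inhibitors of cyclin-dependent kinases, while genes of the G2 and M phases are shut down. Expression is given as CPM, the count of a gene per 1e6 counts of the scaled library, with values of replicates 1, 2 and 3 in that order, mock first. A gene was called higher or lower at a Benjamini-Hochberg adjusted p under 0.05 in edgeR's quasi-likelihood test together with a log2 fold change of 1 or more in size, and "rose" and "fell" are used of such genes.

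The hvatr.g libraries held between 36726222 and 74699245 counts assigned to genes, and the WT libraries between 36100439 and 41862795. On the first principal component of the hvatr.g libraries, which held 49.2% of their variance, the mock libraries were separated from the zeocin libraries. Among all 12 libraries WT mock replicate 3 stood apart. Genes of dividing cells were present in every library, with 1512 to 2647 counts of the spindle checkpoint gene MAD2 in hvatr.g mock. Summed over 6 markers of green leaf tissue, hvatr.g libraries reached 0.0268 to 0.274 CPM, with 1 to 5 of the 6 markers at 0. ATR itself (HORVU.MOREX.r3.7HG0748510) was transcribed at 20.5, 15.4 and 13.1 CPM in hvatr.g mock and at 17.8, 14.3 and 15.2 CPM after zeocin. These values overlapped each other and those of WT mock, which lay between 9.85 and 15.4 CPM, so transcript level neither marked the mutant nor served as a check of its label.

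Zeocin raised 336 genes in hvatr.g, 1.29% of those tested, and lowered 559 genes, 2.15% of those tested, so that 3.44% were called in all. At any fold change 1597 genes, 6.13%, had an adjusted p under 0.05. The genes that rose were mostly weakly transcribed in mock roots, with a median of 2.29 CPM that became 8.42 CPM after zeocin, and 37.2% of them lay under 1 CPM in mock. Genes that fell started from a median of 19.3 CPM and ended at 4.09 CPM. The median log2 change was 1.85 among the former and −1.77 among the latter, against 0.00 over all tested genes. A rise of at least 3 on the log2 scale was found for 61 genes and a fall of that size for 90. Without zeocin replicate 3, the calls numbered 230 higher and 478 lower, the lowest counts obtained by leaving out any of the 6 libraries.

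The kinases and the factor at the head of the damage response showed no detectable change in transcript level. ATM measured 60.3, 50.9 and 42.5 CPM in mock and 57.4, 51.9 and 48.7 CPM after zeocin (log2 change 0.04 ± 0.25, SE, adjusted p = 0.98). SOG1 measured 10.5, 9.31 and 10.6 CPM in mock and 11.4, 10.2 and 9.98 CPM after zeocin. WEE1, a kinase that restrains entry into mitosis, lay between 30.3 and 36.4 CPM in all 6 libraries. For these genes and for ATR the groups overlapped. By contrast, 3 NAC genes called SGL in the study, for SOG1-like, rose. SGL.A went from 6.91, 7.38 and 6.46 CPM to 27.8, 23.9 and 28.2 CPM, a log2 change of 1.95 ± 0.23 (adjusted p = 0.00019). The rise was 2.14 ± 0.31 for SGL.C, which stayed under 8 CPM, and 1.51 ± 0.15 for SGL.D. The fourth member, SGL.B, was below the count filter and was not tested. SMR3, an inhibitor of cyclin-dependent kinases of the SIAMESE family, measured 10.6, 19.7 and 15.2 CPM in mock and 91.7, 81.9 and 108 CPM after zeocin, 6.20-fold higher on average (adjusted p = 2.7e-05).

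Among 421 barley genes assigned to the DNA damage response by homology, 322 were tested, and 16 rose and 18 fell, 4.97% and 5.59% of the tested members beside 1.29% and 2.15% of all tested genes. The median log2 change of the 322 genes was −0.06. Tyrosyl-DNA phosphodiesterase TDP (HORVU.MOREX.r3.2HG0164790), an enzyme of the class that frees DNA ends from bound protein, had the largest fold among members above 1 CPM in mock. It measured 11.8, 9.61 and 7.63 CPM in mock and 217, 161 and 168 CPM after zeocin, an 18.7-fold rise (log2 4.22 ± 0.30, adjusted p = 9e-06). PARP2, a poly(ADP-ribose) polymerase that binds strand breaks, went from 14.2, 12.5 and 11.0 CPM to 213, 164 and 157 CPM, a 14.2-fold rise. HORVU.MOREX.r3.1HG0024050, likewise described as a PARP, measured 0.637, 0.945 and 1.13 CPM in mock and rose by 2.12 ± 0.32 on the log2 scale.

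Of 30 tested homologous recombination genes assigned by homology, 2 rose, BRCA1 and EME1B.A, and 2 fell, beside 1.29% and 2.15% of all tested genes. The log2 changes of the 30 genes ran from −3.83 to 1.65. Of 9 tested break-sensing and checkpoint clamp genes, listed separately, 1 was called, MRE11.B, beside 3.44% of all tested genes. MRE11.B, a copy of the nuclease that trims broken ends, lay under 0.5 CPM in each mock library and between 1.27 and 2.15 CPM after zeocin (log2 change 2.36 ± 0.36). BRCA1, a ubiquitin ligase of homologous recombination, went from 16.4, 12.7 and 10.3 CPM to 47.4, 40.4 and 36.6 CPM (3.15-fold, adjusted p = 0.0058), and the BRCT-domain gene BCP1 rose 2.59-fold. BARD1, the partner of BRCA1 in Arabidopsis, fell from 24.7, 16.8 and 12.0 CPM to 5.45, 6.16 and 4.61 CPM (3.3-fold lower, adjusted p = 0.0015). GMI1, named in Arabidopsis for its induction by gamma irradiation, had 3 counts over the 3 mock libraries and was 14.1 to 209.8-fold higher by the counting interval of the summed counts, with a fitted adjusted p of 0.0014. NSE4.A, a subunit of the SMC5/6 complex that holds damaged chromatids together, went from 2.56, 1.93 and 2.78 CPM to 10.4, 8.51 and 10.2 CPM. Of 14 tested SMC5/6 and cohesin genes it was the only one to rise, and no member fell, beside 1.29% higher and 2.15% lower of all tested genes. The absence of falls in a list of this size is close to that share.

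None of the 6 tested end-joining genes, 9 mismatch repair genes or 28 genes of nucleotide excision repair assigned by homology was called in either direction. Of all tested genes 3.44% were called, so the absence of calls in lists of this size is close to that share. Outside these lists, the RAD23 gene HORVU.MOREX.r3.6HG0557300, described as of a UV excision repair family, rose 2.03-fold (adjusted p = 0.036 in edgeR). Its call was lost in several alternative fits, among them that of the 6 hvatr.g libraries alone (adjusted p = 0.058) and that without mock replicate 1 (log2 change 0.88). RAD54 lay between 6.55 and 10.2 CPM in mock and between 12.1 and 18.9 CPM after zeocin, groups that did not overlap (12.0% of all tested genes showed such an upward separation), but its adjusted p was 0.13. Of 16 tested translesion synthesis genes 1 rose and 1 fell, beside 1.29% and 2.15% of all tested genes. REV3, the catalytic subunit of polymerase zeta, rose from 44.2, 42.9 and 37.1 CPM to 166, 129 and 129.7 CPM (3.42-fold, adjusted p = 0.00041). RAD5B fell 7.86-fold. Of 9 tested RecQ helicases and partners 2 fell and none rose, beside the same shares of all tested genes. RMI1 fell 2.68-fold and RECQL2.A fell 2.05-fold. RECQL2.A lost its call with library size scaling alone (log2 change −0.99), without mock replicate 1 (−0.87) and without zeocin replicate 3 (−0.91). RECQL3 passed the adjusted p (0.017) at a log2 change of 0.86, under the fold threshold. The nuclease gene EME1B.A rose 2.23-fold with an adjusted p of 0.024, a call lost when any of 5 of the 6 hvatr.g libraries was left out (adjusted p up to 0.10).

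**Figure D1:**
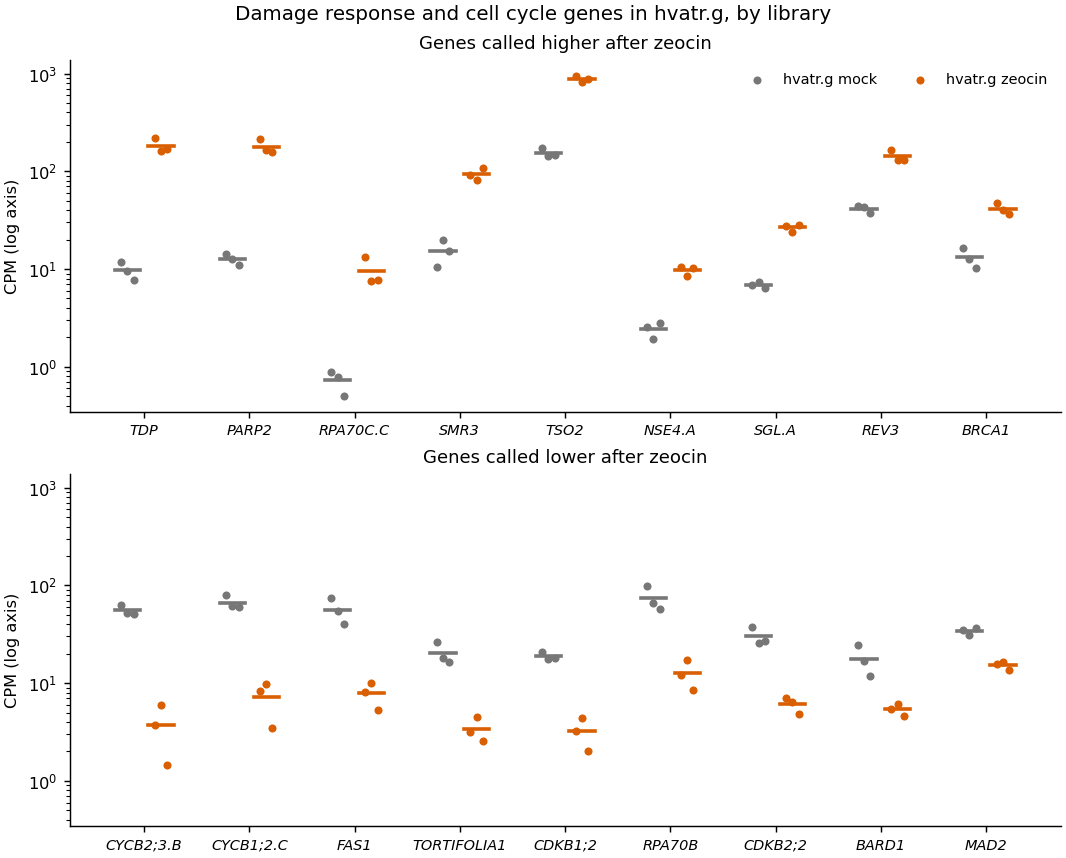
CPM on a log axis of genes that rose (top) and genes that fell (bottom) in hvatr.g, with a point for each library in grey (mock) or orange (zeocin) and a bar at the mean. TDP lies between 7.63 and 11.8 CPM in mock and between 161 and 217 CPM after zeocin, CYCB2;3.B lies between 51.3 and 63.2 CPM in mock and between 1.44 and 6.00 CPM after zeocin, and the groups of the genes shown do not overlap.

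Replication protein A, the complex that coats single-stranded DNA and is encoded by several copies of each subunit gene, was split in its response. Of 16 tested copies, 3 rose and 3 fell, beside 1.29% and 2.15% of all tested genes. RPA70C.C rose from 0.889, 0.785 and 0.504 CPM to 13.3, 7.50 and 7.65 CPM (12.8-fold, adjusted p = 0.0001), RPA2.K rose 3.38-fold and RPA1A.C rose 2.61-fold. RPA70B, a copy of the same large subunit, fell from 97.4, 65.6 and 57.7 CPM to 12.2, 17.1 and 8.46 CPM (5.83-fold, adjusted p = 0.00011), RPA2.L fell 4.76-fold and RPA3A.A fell 2.54-fold. Genes of nucleotide supply differed likewise. TSO2, the small subunit of ribonucleotide reductase that makes deoxynucleotides, went from 171, 144 and 147 CPM to 942, 812 and 876 CPM, a 5.69-fold rise (adjusted p = 1.4e-06). The large subunit gene RNR1.B measured 196, 163 and 116 CPM in mock and 368, 329 and 278 CPM after zeocin, and at an adjusted p of 0.0504 it lay just past the threshold. Both dUTPase genes that passed, DUT1.B and DUT1.C, which keep uracil out of DNA, fell 5.44-fold and 4.34-fold.

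Genes of DNA replication that were called fell in the homology list. Of 23 replication factors assigned by homology 6 fell and none rose, beside 2.15% and 1.29% of all tested genes. Their median log2 change was −0.37 beside 0.00 for all genes. POLD4.A, a small subunit of polymerase delta, fell from 15.4, 13.2 and 14 CPM to 0.866, 1.24 and 0.684 CPM (15.3-fold, adjusted p = 1.4e-06). CDC45.A, part of the replicative helicase, fell 4.72-fold, ETG1, a replisome factor of sister chromatid cohesion in Arabidopsis, fell 4.34-fold, the sliding clamp gene PCNA2.I fell 4.33-fold, and the polymerase epsilon subunit DPB2 fell 3.04-fold. In a wider list of origin and fork genes, 27 of 34 fell and 5 rose. That list and those for histones, kinesins, cyclins, spindle, chromatin and stress genes below were assembled by the study from genes that changed in these same libraries, so their counts are not independent evidence of a direction. From it, the origin licensing gene CDC6 (HORVU.MOREX.r3.3HG0301080) fell from 23.9, 15.7 and 10.9 CPM to 3.01, 3.21 and 0.861 CPM.

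Among the lists examined, those of mitotic genes had the lowest medians. All 9 listed cyclins, 21 of 22 kinesins and 23 of 23 spindle and division genes fell, with median log2 changes of −2.98, −1.86 and −2.05. CYCB1;2.C, a B-type cyclin of the G2 to M transition, went from 79.2, 60.9 and 59.5 CPM to 8.34, 9.80 and 3.5 CPM (9.21-fold lower, adjusted p = 6.8e-05). CYCB2;3.B went from 63.2, 51.7 and 51.3 CPM to 3.72, 6.00 and 1.44 CPM, 14.9-fold lower. In bulk apices, fewer dividing cells and less of these transcripts per cell cannot be told apart. The B-type kinase genes CDKB1;2 and CDKB2;2 fell 5.86-fold and 4.93-fold, although the description attached to the latter gene in the study reads importin subunit beta-1. MAD2 fell 2.23-fold, and TORTIFOLIA1, a microtubule-associated gene, fell 5.93-fold. FBL17.A, an F-box gene that in Arabidopsis promotes the removal of cyclin-dependent kinase inhibitors, fell 2.65-fold. Summed over the 9 cyclins, mock libraries held 294, 235 and 227 CPM and zeocin libraries 32.4, 40.3 and 17.9 CPM. For the cyclin and kinesin sums zeocin replicate 3 was the lowest library and mock replicate 1 the highest.

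Kinesins, the motors that move along microtubules, contributed 21 falling genes. HORVU.MOREX.r3.2HG0174320 went from 33.9, 25.6 and 26.6 CPM to 2.01, 2.17 and 0.988 CPM (16.6-fold lower, adjusted p = 9.2e-06), and 3 further kinesin genes, HORVU.MOREX.r3.5HG0511950, HORVU.MOREX.r3.5HG0467060 and HORVU.MOREX.r3.5HG0427780, fell 11.8-fold, 10.3-fold and 9.11-fold. Beside them fell a gene described as an RP/EB family microtubule-associated protein (HORVU.MOREX.r3.1HG0047290, 10.8-fold) and a homologue of POLYCHOME (HORVU.MOREX.r3.6HG0590050, 11.5-fold), which in Arabidopsis restrains the anaphase-promoting complex. The groups of these 6 genes did not overlap, as was so for 558 of the 559 genes that fell, so the separation adds nothing to their calls. A downward shift without overlap was found in 14.1% of all tested genes.

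The study's list of changed histone genes holds 131, of which 2 encode H1, 31 H2A, 25 H2B, 30 H3 and 43 H4. Each was called lower here, a direction largely set by how the list was made, and histone genes outside it were not examined. The falls had log2 changes from −3.49 to −1.06 and a median of −1.65. Their summed level was 12773, 12529 and 12911 CPM in mock and 5085, 4857 and 3911 CPM after zeocin. Replication-dependent histones are made in S phase to package new DNA. Large falls above 10 CPM in mock were those of the H3 gene HORVU.MOREX.r3.7HG0709110 (8.51-fold, from 19.3, 16.2 and 15.3 CPM to 1.95, 2.38 and 1.65 CPM), the H2A genes HORVU.MOREX.r3.6HG0558870 and HORVU.MOREX.r3.6HG0558880 (7.88-fold and 7.64-fold) and the H2B gene HORVU.MOREX.r3.1HG0067590 (7.78-fold). The 2 linker histone H1 genes fell 2.52-fold and 2.2-fold, the latter (HORVU.MOREX.r3.5HG0520110) dropping just under the fold threshold without zeocin replicate 3 (log2 change −0.99). Histone copies are nearly identical in sequence and how shared reads were counted is not given in the sources used here, so values of individual copies are uncertain.

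**Figure D2:**
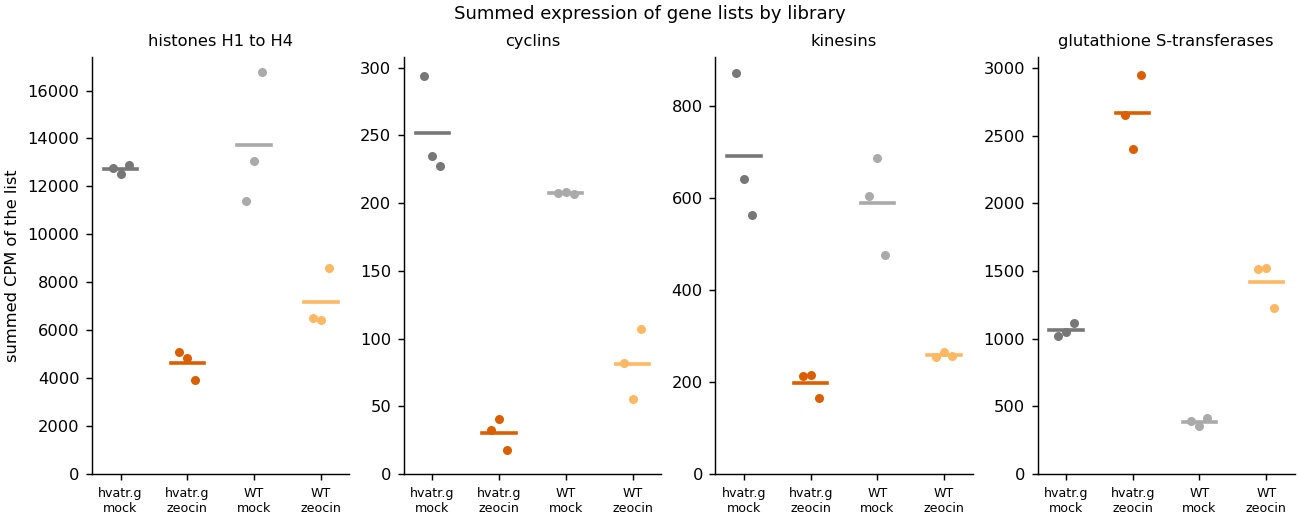
Summed CPM of the histone, cyclin, kinesin and glutathione S-transferase lists in each of the 12 libraries, with a point for each library and a bar at the group mean, on axes that start at 0. In hvatr.g the histone sum lies between 12529 and 12911 CPM in mock and between 3911 and 5085 CPM after zeocin, and the glutathione S-transferase sum lies between 1016 and 1116 CPM in mock and between 2403 and 2950 CPM after zeocin.

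Of 18 histone chaperone and chromatin genes assigned by homology 2 fell and none rose, beside 2.15% and 1.29% of all tested genes. Their median log2 change was −0.13. FAS1, the large subunit of chromatin assembly factor 1, went from 74.2, 54 and 40.4 CPM to 8.05, 10.1 and 5.35 CPM (7.18-fold lower, adjusted p = 0.00011), and the chaperone ASF1B.A fell 2.52-fold. In the study's own list of changed genes of DNA methylation and histone modification, 15 of 19 fell and 2 rose. The DNA methyltransferases MET1 and CMT3, which copy cytosine methylation, fell 2.08-fold and 2.52-fold, VIM1, a cofactor of that maintenance in Arabidopsis, fell 2.53-fold, and CHR1.B, a DDM1-type remodeller, fell 2.26-fold. MET1 dropped under the fold threshold without mock replicate 1 (log2 change −0.88) and without zeocin replicate 3 (−0.93, adjusted p = 0.056 in edgeR). Genes described as histone-lysine methyltransferases fell more deeply. HORVU.MOREX.r3.7HG0640980 went from 48.7, 36.2 and 37.2 CPM to 3.27, 4.29 and 1.60 CPM (13.3-fold lower), and HORVU.MOREX.r3.3HG0237870 fell 9.21-fold. A high mobility group gene (HORVU.MOREX.r3.2HG0194580) fell by 3.92 on the log2 scale.

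**Figure D3:**
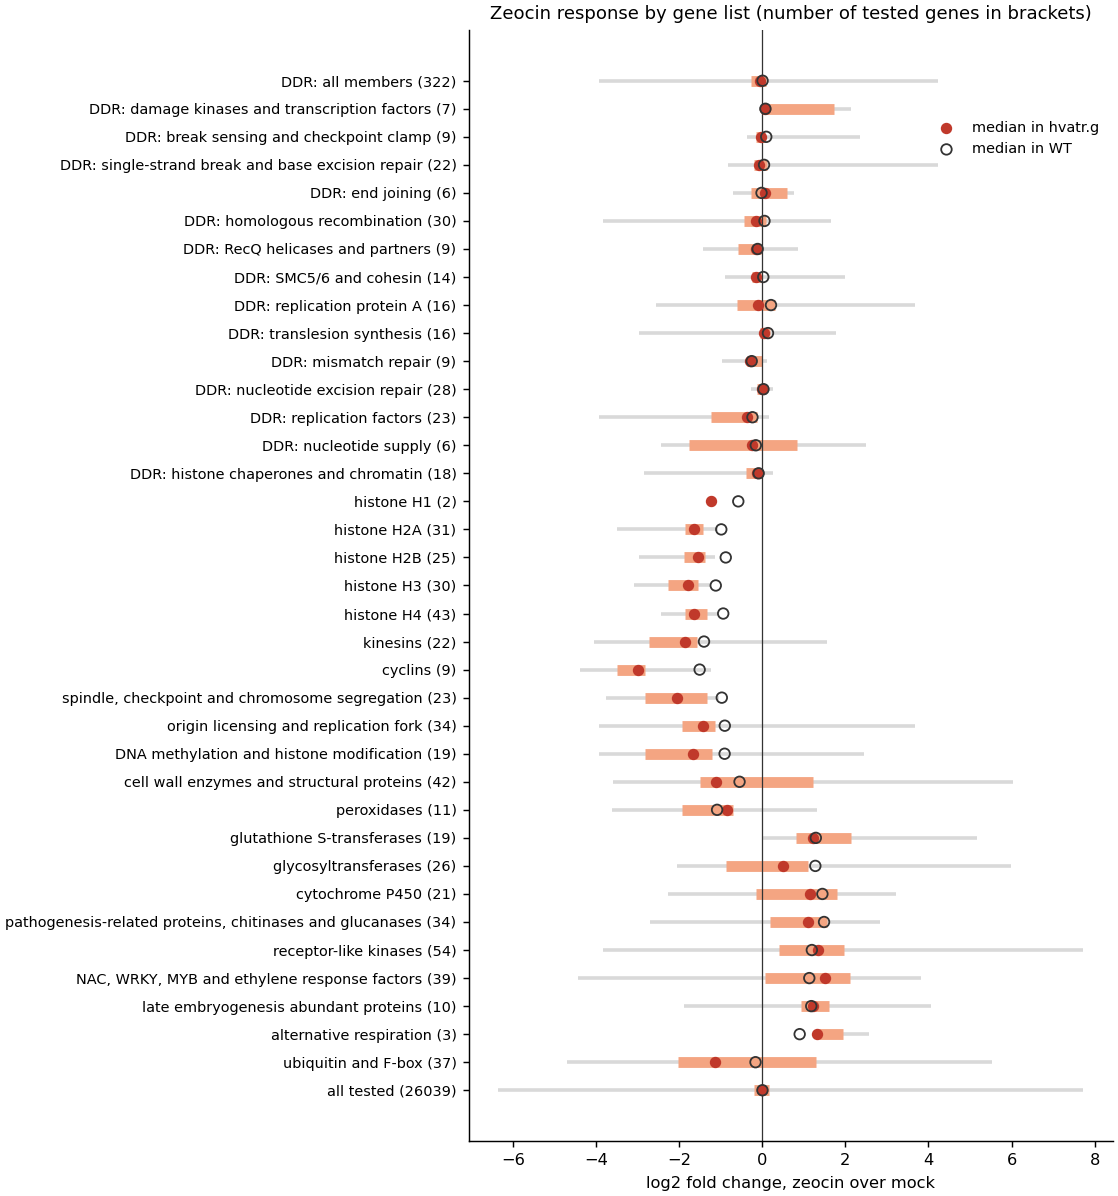
Log2 fold change of zeocin over mock for each gene list, where the grey line spans the lowest to the highest tested member in hvatr.g, the coloured bar the interquartile range, the filled point the median in hvatr.g and the open circle the median in WT. All 131 histone genes lie between −3.49 and −1.06, the cyclins have a median of −2.98, and the glutathione S-transferases have a median of 1.22.

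Of the 19 glutathione S-transferases in the study's list, enzymes that conjugate glutathione to reactive compounds, 12 rose and none fell. HORVU.MOREX.r3.3HG0324100 went from 7.73, 6.40 and 7.83 CPM to 300.4, 223 and 261 CPM, a 35.7-fold rise (log2 5.16 ± 0.15, adjusted p = 3.9e-09). HORVU.MOREX.r3.1HG0066370 rose from 109, 80.6 and 80.7 CPM to 525, 463 and 538 CPM and HORVU.MOREX.r3.3HG0320140 rose 7.70-fold. All 3 listed genes of alternative respiration, which passes electrons around the cytochrome pathway, rose, though the call of the ubiquinol oxidase HORVU.MOREX.r3.2HG0193650 was lost in 4 of the 6 fits that left out a library, with an alternative NAD(P)H dehydrogenase (HORVU.MOREX.r3.2HG0134640) at 5.98-fold. Of 10 late embryogenesis abundant genes on the study's list of changed genes, which protect cells in drying tissue, 6 rose and 1 fell. HORVU.MOREX.r3.5HG0498820 rose from under 0.4 CPM to 5.47, 4.06 and 2.86 CPM. CAX5, a cation exchanger, rose 9.28-fold.

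Among 39 NAC, WRKY, MYB and ERF genes that the study listed because they changed, 24 were higher and 4 lower, and other members of these families were not tallied. The WRKY gene HORVU.MOREX.r3.3HG0276810 went from 0.371, 0.446 and 0.456 CPM to 5.04, 4.16 and 7.78 CPM (13.3-fold), and the NAC gene HORVU.MOREX.r3.4HG0400400 fell from under 1 CPM to at most 0.0517 CPM. Receptor-like kinases that the study listed as changed divided, with 20 of 54 higher and 11 lower. The leucine-rich repeat kinase gene HORVU.MOREX.r3.3HG0317920 had no count in the mock libraries and was at least 35.8-fold higher after zeocin, taking 3 counts over the mock group as its limit. Glycosyltransferases (7 higher and 6 lower of 26), cell wall genes (11 and 21 of 42), pathogenesis-related genes (10 and 8 of 34) and ubiquitin and F-box genes (12 and 20 of 37) were also mixed. Cytochromes P450 numbered 9 higher and 3 lower of 21, and peroxidases 1 higher and 4 lower of 11. These counts too are of genes the study listed because they changed, not of whole families. The glycosyltransferase HORVU.MOREX.r3.3HG0282740 rose from 266, 275 and 218 CPM to 1043, 877 and 1138 CPM. In WT the same gene went from between 14.4 and 22.7 CPM to between 182 and 380.0 CPM.

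The largest rises among genes averaging at least 1 CPM came mostly from transcripts near 0 in mock. HORVU.MOREX.r3.3HG0254160, described as a restriction of telomere capping protein, measured 0.172, 0.303 and 0.144 CPM in mock and 38.8, 24.7 and 33.2 CPM after zeocin, a 153-fold rise (log2 7.26 ± 0.32, adjusted p = 2.3e-07). HORVU.MOREX.r3.1HG0025830, described as a retrotransposon protein, measured 0.226, 0.357 and 0.528 CPM in mock and 39.3, 37.3 and 40.5 CPM after zeocin, log2 6.78 ± 0.24. Further genes of this group were a P-loop nucleoside triphosphatase gene (HORVU.MOREX.r3.6HG0578460, log2 6.67), a glycosyltransferase (HORVU.MOREX.r3.1HG0092830, 63.8-fold), a ubiquitin hydrolase gene (HORVU.MOREX.r3.7HG0736330, 46.5-fold) and a pleiotropic drug resistance ABC transporter (HORVU.MOREX.r3.3HG0288800, 37.3-fold). The glutathione S-transferase HORVU.MOREX.r3.3HG0324100 given above, also among the 10 largest rises, lay between 6.40 and 7.83 CPM in mock. Under the same limit of 1 CPM, the deepest fall was that of a Tubby-like F-box gene (HORVU.MOREX.r3.6HG0569480), from 12.2, 8.95 and 8.83 CPM to 0.335, 0.647 and 0.177 CPM (26-fold). Next came a glucan 1,3-beta-glucosidase (HORVU.MOREX.r3.5HG0498960, 22.8-fold) and a cyclin family gene (HORVU.MOREX.r3.3HG0249410, 20.8-fold). At the other end, the 5 most abundant transcripts, between 2693 and 10090.2 CPM in the hvatr.g libraries, were not called, with log2 changes from −0.32 to 0.07.

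The response of hvatr.g was set beside that of WT, in which 292 genes rose (1.12% of those tested) and 235 fell (0.902%). Of the genes that rose in hvatr.g 203 also rose in WT, 60.4% of the 336 and 69.5% of the 292. Of those that fell 218 also fell in WT, 39.0% of the 559 and 92.8% of the 235, and no gene was called in opposite directions. The genes chosen by a fall in hvatr.g had a median WT log2 change of −0.99, and those chosen by a fall in WT had medians of −1.42 in WT and −2.30 in hvatr.g. Among the latter 235, the fall was larger in hvatr.g in 91.1%. Of all 26039 tested genes, 14110 had a lower log2 change in hvatr.g than in WT. For genes chosen by a rise in WT the medians were 2.05 in WT and 1.59 in hvatr.g, and the rise was larger in hvatr.g in 32.5%. Summed histones were 11392, 13057 and 16756 CPM in WT mock and 6488, 6413 and 8578 CPM in WT zeocin. The 131 listed histone genes had a median log2 change of −0.99 in WT beside −1.65 in hvatr.g. The study listed them because they changed in these libraries, and all 131 were called lower in hvatr.g but 58 in WT. The deeper median in hvatr.g is therefore partly set by how the list was made. Log2 changes were close in some damage genes with large rises, at 3.93 in WT and 4.22 in hvatr.g for TDP. They were 3.63 and 3.82 for PARP2 and 2.55 and 2.63 for SMR3. In other such genes they lay further apart. The hvatr.g change minus the WT change was −1.56 for SGL.C, 2.08 for GMI1 and 0.75 for RPA70C.C. The unadjusted edgeR p of this difference was 0.010, 0.099 and 0.18 in that order, and for SGL.C the adjusted p was 0.79. SGL.C lay between 0.0845 and 0.241 CPM in WT mock and between 1.03 and 1.72 CPM in hvatr.g mock. Without WT mock replicate 3, the library that stood apart, 301 genes rose and 206 fell in WT, and 168 of the 206 fell further in hvatr.g. In that fit 202 of the 336 and 176 of the 559 were shared, and the histone median in WT was −0.83. WT zeocin replicate 3 deviated from its group together with that library (correlation 0.543) and was kept. Each of these libraries held the highest histone sum of its group, so this omission lowered the mock side only. It is not a neutral check of the WT falls, and a fit without both was not run.

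The difference between the responses was tested for each gene as the genotype by zeocin interaction. With edgeR's quasi-likelihood test no gene passed an adjusted p under 0.05 (0% called, smallest adjusted p = 0.149), and 1120 genes, 4.30%, had an unadjusted p under 0.05. DESeq2 called 115 genes, of which 99 had a lower log2 change in hvatr.g, and limma-voom called 1. Without WT mock replicate 3 edgeR again called 0, with 2234 genes at an unadjusted p under 0.05. Of the 559 genes that fell in hvatr.g, 336 had an unadjusted interaction p under 0.05, all with the larger fall in hvatr.g, a count that shares the contrast used to choose them. Among called genes the cyclin HORVU.MOREX.r3.4HG0342640, with log2 changes of −2.83 in hvatr.g and −0.79 in WT, and POLD4.A, with −3.93 and −2.04, shared the smallest adjusted interaction p in edgeR (0.149). TSO2 had a log2 rise of 2.51 in hvatr.g and 1.69 in WT, with 498, 614 and 457 CPM in WT zeocin. Its Benjamini-Hochberg adjusted p for the interaction in edgeR was 0.38. The Dof zinc finger gene HORVU.MOREX.r3.2HG0209560 had log2 changes of 1.59 in hvatr.g and 0.49 in WT, from a mock level of 5.57 to 6.83 CPM in hvatr.g and 21.9 to 24.7 CPM in WT. In the opposite direction a gene described as ribosomal protein L7/L12 (HORVU.MOREX.r3.3HG0323590) rose by 1.95 in hvatr.g and by 4.86 in WT. At this depth and replicate number these differences were not resolved after correction in edgeR.

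**Figure D4:**
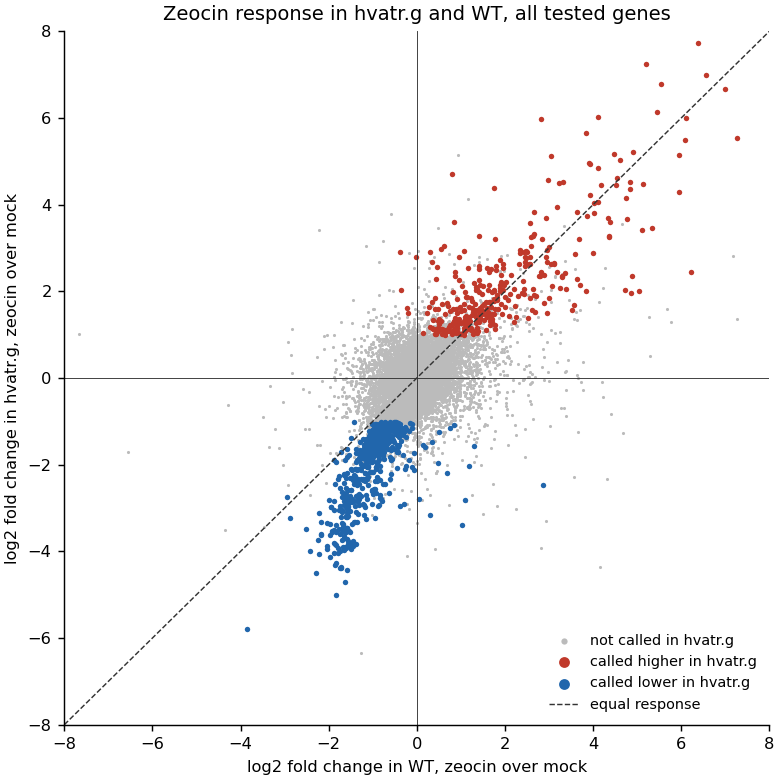
Log2 fold change of zeocin over mock in hvatr.g and in WT, with each point a tested gene, called genes coloured by their direction in hvatr.g and a dashed line at equal response. Genes that fell in hvatr.g have a median of −1.77 there and −0.99 in WT, and genes that rose have a median of 1.85 there and 1.60 in WT.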

How the data were processed

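RNA of root apices from 12 barley samples, 3 biological replicates in each of 4 groups, was sequenced as 150 bp paired reads. The authors trimmed the reads with Trim Galore, aligned them with HISAT2 2.1.0 to the Morex v3 genome and assigned them to genes with Subread 1.5.2, and the deposited table holds raw counts, 1 column per sample and 1 row per annotated transcript, with 0 columns left unused. How multiply mapped reads and strand were handled is not given in the sources used here, which bears on multicopy families. P-values measure the spread between these samples.

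Counts were tested as deposited in edgeR 4.0.16 (R 4.3.3), with the expression filter of that package, TMM scaling and a quasi-likelihood fit of all 12 libraries with 1 coefficient per group. The contrast was hvatr.g zeocin minus hvatr.g mock, with Benjamini-Hochberg adjustment of its p-values across the 26039 tested rows, of which 454 shared a gene with another row. The interaction was the hvatr.g contrast minus that of WT, without a fold threshold. CPM used the TMM-scaled library sizes, and standard errors of log2 changes came from the F statistic. The biological coefficient of variation was 0.214. Counting intervals are at 95% and, like the limit of 3 counts taken for a group at 0, cover counting error only. No sample was a duplicate of another, since chi-square per degree of freedom between counts of the same group was at least 15.8. The fit was tested on simulated data with 200 changed genes.

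Gene lists, members and thresholds were chosen with earlier results of these data known. Named genes were those the study names for the response, the 10 largest rises and 10 largest falls with non-overlapping groups and a mean of at least 1 CPM, up to 4 called members with the largest change per list and every called member of the damage response sublists, the 6 called genes with the smallest interaction p, and the 5 most abundant genes. Examples in the text were drawn from these, and a gene covered by the rule is not reported here. Gene descriptions are those of the study. Homology assigned the damage response list, whereas the other lists came from genes the study called. Alternatives were DESeq2 1.42.0, limma-voom (limma 3.58.1), other scalings and filters, the hvatr.g libraries alone, replicate blocks (same-numbered WT samples deviated together by correlations of 0.312 to 0.543, which put the pairing on the data and not on the labels) and leaving out each replicate. Omission of WT mock replicate 3 from the WT response was added after seeing the data.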

Additional observations from a re-analysis of the deposited data

How the results depend on the processing

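The numbers of genes called in hvatr.g stayed within 1.5 times those reported under every alternative run. They lay between 307 and 434 higher and between 526 and 634 lower across tools, scalings, filters, blocks and the hvatr.g libraries alone, with DESeq2 at 434 and 622, and between 230 and 323 higher and between 478 and 555 lower when a replicate was left out. In the latter, 202 of the 336 and 437 of the 559 genes were called each time. The interaction count, 0 in edgeR, was 115 by DESeq2, 1 by limma-voom, 33 without a filter on low counts, and 0 to 1 when a replicate was left out, and the cause of these differences was not tested.

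Replicates were numbered in the order of the sample titles, whose own numbers differ between groups. Deviations from the group means correlated at 0.177, 0.0268 and 0.175 in the 3 same-numbered hvatr.g pairs. The first and last of these lay above the threshold of 0.1 set for pairing, and the other hvatr.g mock and zeocin pairs lay between −0.228 and 0.0662. Whether the hvatr.g samples were paired was left undecided, and the main test used no pairing. The WT pairs correlated at 0.312, 0.382 and 0.543. A replicate block over all 12 libraries gave 375 higher and 586 lower, a block within each genotype gave 406 and 634, and the interaction stayed at 0 in both (smallest adjusted p 0.302 and 0.156 in edgeR). In WT the pairing block gave 317 higher and 254 lower over all libraries and 344 and 306 within each genotype, beside 292 and 235 without it. The blocks within genotype left 58.1% of the higher and 40.4% of the lower hvatr.g calls shared with WT.

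Of 147 named genes that were called, 128 kept their call under every alternative, 19 lost it under at least 1, and none changed sign. Signs changed among uncalled genes only. As replicates were left out, the log2 change of ATR ranged from −0.19 to 0.14, of ATM from −0.079 to 0.17, of SOG1 from −0.0042 to 0.093, of RECQL2.B from −0.056 to 0.046 (0.020 by library size only), of OXIDATIVE STRESS 3 from −0.12 to 0.36, of HORVU.MOREX.r3.5HG0421460 from −0.054 to 0.19 and of HORVU.MOREX.r3.6HG0592050 from −0.079 to 0.23, and the cause was not tested. Genes under 1 CPM are limited by depth.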

Other observations

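Levels in the mock groups of both genotypes were set side by side for a few genes. The 19 glutathione S-transferases of the study's list of changed genes summed to 1016, 1052 and 1116 CPM in hvatr.g mock and to 389, 356 and 412 CPM in WT mock. After zeocin they summed to 2654, 2403 and 2950 CPM in hvatr.g and 1515, 1521 and 1228 CPM in WT. Such sums are weighted to abundant members. The median mock difference of the 19 genes, hvatr.g minus WT, was 0.29 on the log2 scale, beside 0.04 over all tested genes. A glycosyltransferase gene (HORVU.MOREX.r3.3HG0227940) measured 0.451, 1.27 and 0.480 CPM in hvatr.g mock and 12.9, 23.1 and 10.1 CPM after zeocin, while no WT library exceeded 0.331 CPM, and its unadjusted interaction p in edgeR was 0.11. These differences between mock groups were not tested.

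POLD1, the catalytic subunit of polymerase delta, measured 2.75, 1.61 and 2.98 CPM in hvatr.g mock and 3.37, 3.36 and 3.37 CPM after zeocin, and 0.893, 1.24 and 2.19 CPM in WT mock and 5.63, 2.76 and 9.88 CPM in WT zeocin. OXIDATIVE STRESS 3 lay between 0.571 and 1.08 CPM in all hvatr.g libraries, and WT zeocin replicate 3 alone reached 9.35 CPM. The genes called in hvatr.g were spread over the chromosomes, with 1.1% to 1.55% of the tested genes of each of the chromosomes 1H to 7H higher and 1.68% to 2.84% lower.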
